A study of Mus musculus with 24 samples.

Results

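The 51 genes described here encode the parts of the primary cilium and of the machinery that builds it. They were chosen by name: 12 subunits of intraflagellar transport complex B, 6 subunits of complex A, 5 transport motor genes, 6 subunits of the BBSome, 2 chaperonin-like BBS genes, 3 ARL GTPases, 14 genes of the transition zone and 3 genes of ciliary membrane trafficking and signalling. All 51 were found among the 55536 genes of the table, and all 51 passed the filter on low values.

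RNA was sequenced in bulk from 2 whole organs of E11.5 mouse embryos, the lung and the small intestine, in 6 groups of 4 libraries. Control embryos were ShhCre Cenpj+/lox, Cenpj mutants were ShhCre Cenpj-/lox and Ift88 mutants were ShhCre Ift88-/lox, and each genotype was sampled in both organs. All 3 genotypes therefore carried ShhCre, which recombines in the epithelium of both organs. In the mutants, cells in which Cre does not act kept a working lox copy beside a null copy. The same cells of the controls carried no null copy of Cenpj. Cenpj encodes a protein needed to build centrioles, and Ift88 encodes a subunit of intraflagellar transport complex B. The Cenpj+/lox embryos were the controls for both mutants, so the comparisons of the mutants with control share the same control libraries. The labels do not say that the 4 libraries of a group came from separate embryos, so that p-values cover the spread among the libraries and nothing wider.

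The primary cilium is a single antenna of microtubules that grows from the older centriole of a cell and is covered by its own stretch of membrane. Complex B with kinesin-2 carries cargo to the tip, complex A with dynein-2 carries it back, the transition zone gates the base, and the BBSome moves membrane receptors in and out. In vertebrate embryos hedgehog signals are read at the cilium, and in the developing lung and gut Shh made by the epithelium acts on the mesenchyme around it.

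Libraries held 96.12 to 120.9 M recovered reads and 21994 to 26529 detected genes. In 10 of them ribosomal RNA took over 2000 reads per M reads: these were lung control 3, intestine control 2 and the 8 libraries of the Cenpj mutants. They are called ribosomal-rich here, and none of the 8 Ift88 mutant libraries was among them. Lung control 3 was the only such control in lung and intestine control 2 the only one in intestine. Library kind therefore also goes largely with genotype where Cenpj mutants are set against control. The lung transcription factor Nkx2-1 averaged 4653 to 12800 normalized counts in the lung groups and 0 to 3.55 in the intestine groups. The intestinal factor Cdx2 averaged 882 to 1982 in the intestine groups and 0 to 3.75 in the lung groups. Both went with the organ labels, but not every listed marker did. In controls, limma called 5 of 7 lung epithelial markers higher in lung and 1 lower, where 5.33% of all genes were called. In that list Id2 and Sox2 averaged 12960 and 1289 in control lung and 27500 and 1721 in control intestine. Of 6 intestinal epithelial markers 4 were called lower in lung, and Cdx1 averaged 30.3 in control lung and 15.3 in control intestine. The Y-linked gene Ddx3y stood at 7740 normalized counts in lung control 1, 8063 in intestine control 1 and 1438 in intestine Cenpj mutant 1. It stood at 0 to 47.2 in the other libraries. Among genes detected in only 1 or 2 libraries, the most common read count of a library was 10 to 41. The lowest and the highest counts were left out of this measure. Reads are not taken as independent molecules here, and their independence was not tested. The deleted gene Cenpj differed between Cenpj mutant and control by a log2 fold change of -0.39 in lung (SE 0.16, adjusted p = 0.339 in limma) and of -0.44 in intestine (SE 0.156, adjusted p = 0.878). Values are given per gene, so reads over the deleted exons cannot be seen on their own.

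All 51 genes were well expressed in both organs. Their means over the 24 libraries ran from 730.7 to 8986 normalized counts, which are read counts divided by 1 size factor per library. Counts were also divided by the length of all annotated exons of a gene merged, which can exceed the length of the transcripts present. That length was 14688 bases for Rpgrip1l, a scaffold of the transition zone. It was 2490 bases for Arl3, the GTPase that releases lipid-modified cargo inside the cilium. Per kilobase of merged exon the 51 genes ran from 179 for Rpgrip1l to 2780 for Arl3. Their median was 532 per kilobase, against 70.1 for all genes tested over 24 libraries. The 51 genes lay between percentiles 59.9 and 93.4 of those genes, with a median percentile of 73.1.

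Among the motors, the kinesin-2 subunits Kif3a and Kifap3 reached 2000 ± 141 and 2260 ± 277 normalized counts per kilobase in control lung (SD, n = 4). The third subunit gene, Kif3b, reached 787 ± 70.9. In the same libraries the heavy chain of dynein-2, Dync2h1, reached 353 ± 85.0, and its light intermediate chain, Dync2li1, 958 ± 118. In complex B the levels in control lung ran from 384 ± 35.0 for Ift80 to 2420 ± 265 for Ift20, a subunit also found at the Golgi. In complex A they ran from 240 ± 18.7 for Wdr19 to 1320 ± 157 for Ift43. Subunits of 1 complex thus differed several-fold in counts per kilobase of merged exon. The part of the exon lengths in these differences was not tested.

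Promoters were searched for the X-box, the motif bound by RFX transcription factors, which drive many cilium genes. The motif was spelled as GTTNCC, then NNN, then GNAAC, without gaps, and its reverse complement as GTTNC, then NNN, then GGNAAC. Both strands were thus read, and a window matched by both spellings was counted once. Each window held 300 bases of the RefSeq sequence of GRCm38.p6, from 250 bases before the start of the gene to 50 bases after it. Of the 46 members with an entry, 5 held the motif (10.9%), against 0.936% of 27025 genes with an entry. Among other cilium genes, 2 of 49 held it (4.08%). Ift80, Ift81, Ift122, Dync2li1 and Tmem67 have no entry in the table.

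The 5 matches are shown because 3 of these genes, Ahi1, B9d2 and Tctn1, passed a test below. The capitals mark the motif, and each sequence is written 5′ to 3′ on the strand of its gene.
Ahi1: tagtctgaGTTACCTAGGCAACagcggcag
B9d2: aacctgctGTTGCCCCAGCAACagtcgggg
Bbs7: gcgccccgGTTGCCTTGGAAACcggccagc
Mks1: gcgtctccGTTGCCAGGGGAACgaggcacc
Tctn1: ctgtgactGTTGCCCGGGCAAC
In GRCm38.p6 they lie at chr10:20952560-20952589 on the + strand for Ahi1, chr7:25680788-25680817 on the + strand for B9d2, chr3:36613489-36613518 on the - strand for Bbs7, chr11:87853183-87853212 on the + strand for Mks1 and chr5:122264411-122264432 on the - strand for Tctn1. A match to these letters is a description of the sequence, and factor binding was not measured.

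In whole organs of both mutants, none of the 51 genes differed from control by an amount that passed the test, the deleted gene Ift88 included. In each of the 4 comparisons of a mutant with control, limma called 0 of 51 members at an adjusted p under 0.05. Over all genes tested, the share called was 0.513% for Cenpj mutant lung, 1.07% for Ift88 mutant lung, 0% for Cenpj mutant intestine and 0.719% for Ift88 mutant intestine. By direction, 0.0797% were higher and 0.434% lower in the lungs of Cenpj mutants, 0.437% and 0.631% in those of Ift88 mutants, and 0.399% and 0.32% in Ift88 mutant intestine. At an unadjusted p under 0.05 the members numbered 6, 7, 0 and 7 in the same order. These are 11.8%, 13.7%, 0% and 13.7% of the 51. Of all genes tested, 3606 of 31361 passed in Cenpj mutant lung, and 12.2%, 5.12% and 13.4% passed in the other comparisons in that order. On the recovered reads edgeR called 0 members in all 4 comparisons, and DESeq2 called 3, 3, 0 and 1. The share of all genes that DESeq2 called is not given here. Over all genes, alternatives that kept every library or left out both ribosomal-rich controls called up to 754, 972, 85 and 1015. Limma called 161, 335, 0 and 227, so the member counts of DESeq2 cannot be read against the limma shares. By the authors' deposited table, an FDR under 0.05 was given to 2, 5, 0 and 2 members, where 5.66%, 6.08%, 0.318% and 7.17% of the genes with an FDR did.

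Members whose 4 mutant libraries all lay on 1 side of the 4 controls numbered 5 in the lungs of Cenpj mutants (9.8%, with 5.42% of all genes), 4 in those of Ift88 mutants (7.84%, with 6.13%), 2 in Cenpj mutant intestine (3.92%, with 2.22%) and 5 in Ift88 mutant intestine (9.8%, with 6.67%). In Cenpj mutant lung these were Bbs9, Dync2li1, Ift27 and Ift46 above and Tctn1 below. In Ift88 mutant lung B9d1, Dync2li1, Ift27 and Tctn2 lay above. In Cenpj mutant intestine Kifap3 lay above and Tmem67 below, and in Ift88 mutant intestine Bbs9 lay above and Ahi1, Ift74, Ift88 and Kif3b below. Since both mutants were set against the same controls, a gene that appears for both rests on 1 set of control values.

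The intervals show how large a change these data could still hold. For all 51 members in all 4 comparisons, the 95% interval of the difference lay within a 2-fold change in either direction. For 45, 41, 47 and 47 of the 51, in the order above, it lay within 1.5-fold. Among genes in the same range of mean normalized counts, the share with an interval within 2-fold was 93.9%, 91.9%, 96% and 91.5%. The median log2 difference of the members was 0.05 and 0.08 in Cenpj and Ift88 mutant lung and 0.000598 and 0.04 in Cenpj and Ift88 mutant intestine. In whole organs, fewer cells of a type and less RNA per cell cannot be told apart, and the epithelium was not measured on its own.

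**Figure D1:**
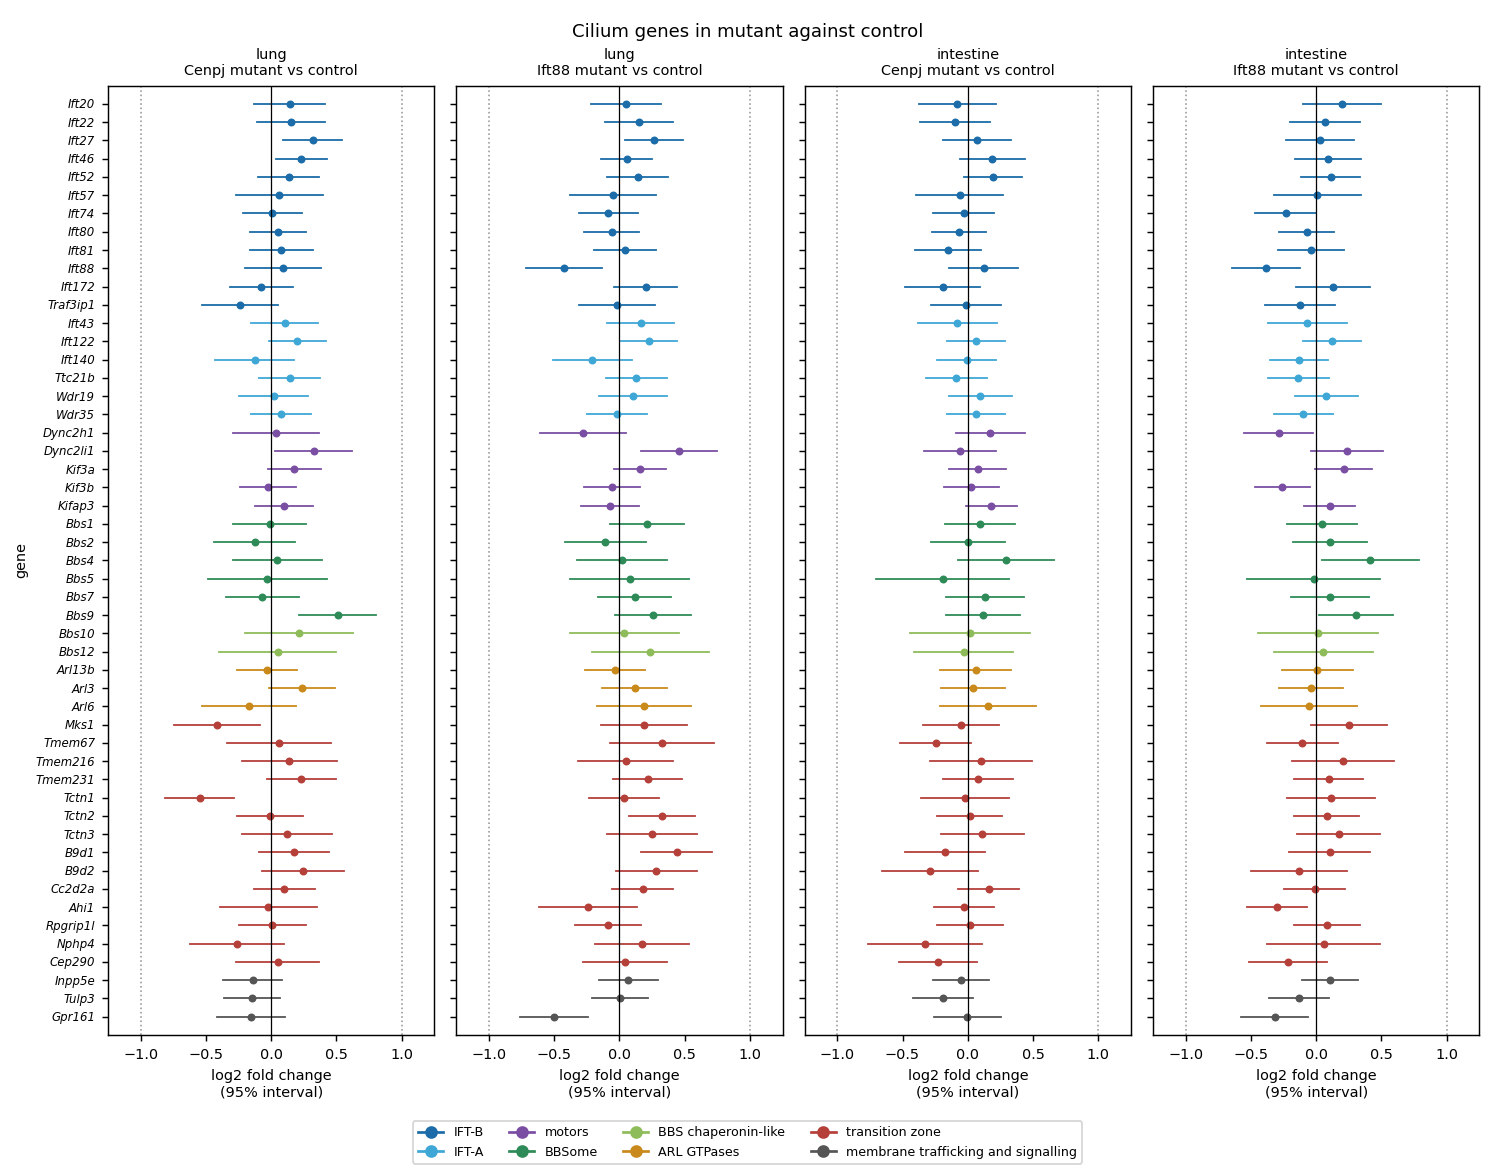
Log2 fold change of each of the 51 cilium genes (rows, coloured by role) with its 95% interval in the 4 comparisons of a mutant with control, 4 libraries per group; dotted lines mark a 2-fold change. All intervals lie inside the dotted lines, and the points farthest from 0 are Tctn1 (-0.55) and Bbs9 (0.51) in Cenpj mutant lung and Gpr161 (-0.50) in Ift88 mutant lung.

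Averaged over the 51 genes, the libraries differed little. The mean deviation of the genes from their 24-library means lay between -0.067 and -0.039 log2 units in the lung controls, between -0.063 and 0.067 in the lung Cenpj mutants and between -0.034 and 0.037 in the lung Ift88 mutants. In intestine it lay between -0.013 and 0.048 in controls, between -0.046 and 0.081 in Cenpj mutants and between -0.002 and 0.066 in Ift88 mutants. The lung controls were the lowest group on average, and all 4 stood below all 4 Ift88 mutant lungs.

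**Figure D2:**
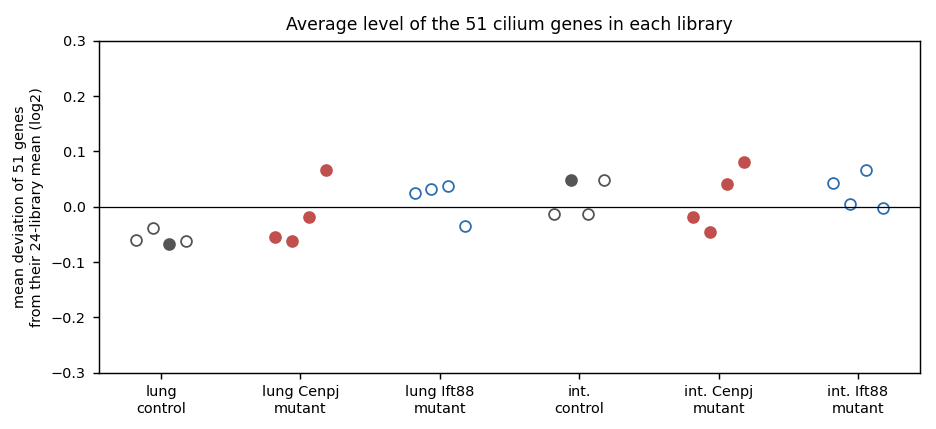
Mean log2 deviation of the 51 cilium genes from their own 24-library means (vertical axis) in each library of the 6 groups; filled points are ribosomal-rich libraries and open points the others. Every library lies between -0.067 and 0.081.

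Ift88 (ENSMUSG00000040040, chromosome 14, 57424062 to 57517936 on the + strand in GRCm38) is both a member and the deleted gene. Control lungs 1 to 4 held 2475, 3059, 2352 and 2663 normalized counts, and Ift88 mutant lungs 1 to 4 held 1839, 2442, 1883 and 1730. In lung 3 of the 4 mutants were below every control and mutant 2 fell inside the control range. The difference in log2 units was -0.42 (95% interval -0.71 to -0.13, adjusted p = 0.166 in limma).

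In intestine, controls 1 to 4 held 2547, 2845, 2357 and 2538 normalized counts of Ift88, and Ift88 mutants 1 to 4 held 2034, 2155, 2152 and 1581. All 4 mutants were below all 4 controls. The difference in log2 units was -0.38 (95% interval -0.65 to -0.12, adjusted p = 0.155 in limma). This difference of Ift88 mutants from control differed between the organs by -0.04 (SE 0.182, adjusted p = 0.996 in limma). A null copy in all cells and the deletion in the epithelium cannot be told apart in these values. The authors' deposited table gave a fold of 0.748 in lung (FDR 0.0276) and of 0.77 in intestine (FDR 0.0498).

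Ift88 was the single member called between the 2 mutants in intestine, where it was higher in the Cenpj mutants. Cenpj mutant intestines 1 to 4 held 2880, 2733, 2710 and 2843 normalized counts, all above all 4 Ift88 mutants. This was a log2 fold change of 0.51 (SE 0.125, adjusted p = 0.0429 by limma), while 2.19% of all genes were called, 0.984% higher and 1.21% lower. The call rested on a narrow margin: without any 1 of the 8 libraries the adjusted p lay between 0.0633 and 0.112, and it was 0.0525 with edgeR and 0.393 in a fit of the 24 libraries with a term for library kind. In lung the same comparison gave 0.52 for Ift88 (SE 0.139, adjusted p = 0.0657), with Cenpj mutants 1 to 4 at 2326, 2830, 3023 and 3092. Within each organ all Cenpj mutant libraries were ribosomal-rich and no Ift88 mutant library was, so library kind and genotype cannot be told apart in a comparison of the mutants. The term for library kind is set only by lung control 3 and intestine control 2 against the other controls. The level of Ift88 was nearly equal in the 2 organs, with a log2 difference of 0.03 in controls (95% interval -0.23 to 0.30).

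**Figure D3:**
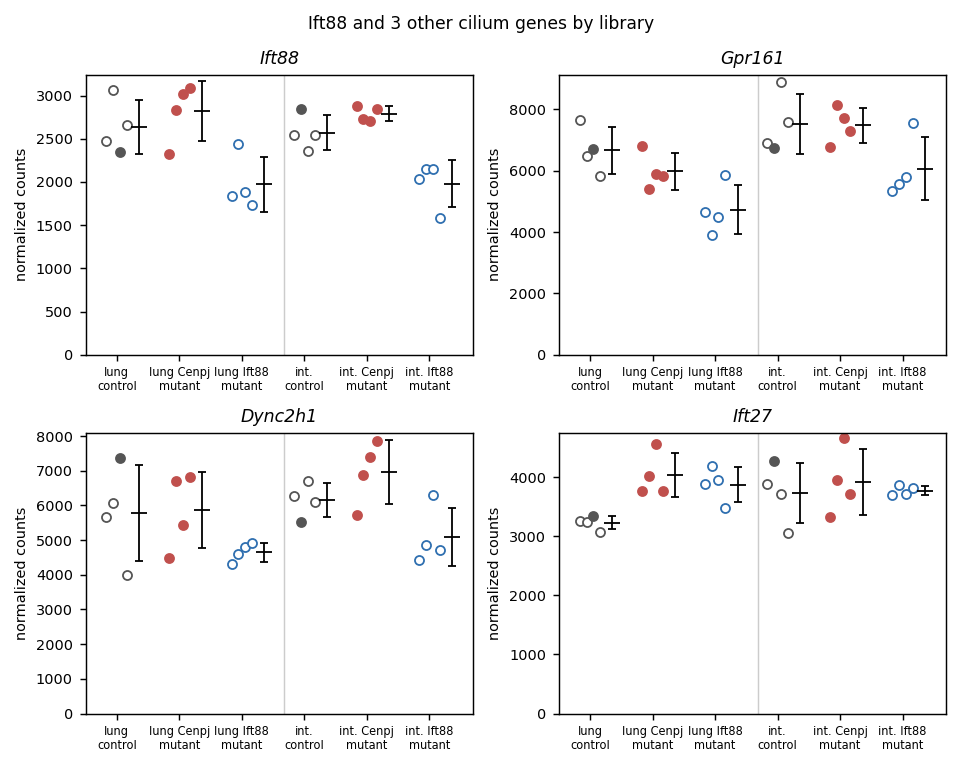
Normalized counts (vertical axis, from 0) of Ift88, Gpr161, Dync2h1 and Ift27 in each of the 4 libraries of the 6 groups, with group mean and SD beside the points; filled points are ribosomal-rich libraries. Ift88 is lowest in the Ift88 mutant groups of both organs (means 1973 and 1981), and Gpr161 is lowest in Ift88 mutant lung (mean 4732).

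The other subunits of complex B lay close to control. In Cenpj mutant lung the 12 genes ran from -0.24 for Traf3ip1 (adjusted p = 0.525), a subunit that links the complex to microtubules, to 0.32 for Ift27 (adjusted p = 0.218), a small GTPase of the complex. Control lungs 1 to 4 held 3254, 3243, 3339 and 3082 normalized counts of Ift27, and Cenpj mutant lungs 1 to 4 held 3772, 4024, 4569 and 3770. All 4 mutants were above all 4 controls, and so were all 4 Ift88 mutant lungs, with 3881, 4186, 3962 and 3477 (log2 fold change 0.26, adjusted p = 0.3 in limma). In intestine Ift27 differed by 0.07 and 0.03 in the Cenpj and Ift88 mutants, and its groups overlapped.

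In complex A none of the 6 genes was called. Differences from control ran from -0.21 for Ift140 to 0.23 for Ift122 in Ift88 mutant lung, and from -0.14 for Ttc21b to 0.12 for Ift122 in Ift88 mutant intestine. In the Cenpj mutants they ran from -0.13 for Ift140 to 0.20 for Ift122 in lung and from -0.09 for Ttc21b to 0.10 for Wdr19 in intestine. These genes encode the retrograde side of the transport machinery.

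Among the motor genes in Ift88 mutant lung, the lowest and the highest difference from control belonged to dynein-2 genes, -0.28 for Dync2h1 (adjusted p = 0.504) and 0.46 for Dync2li1. Dync2li1, the light intermediate chain, held 1984, 1714, 1513 and 1948 normalized counts in control lungs 1 to 4 and 2128, 2873, 2835 and 2046 in Ift88 mutant lungs 1 to 4. All 4 mutants were above all 4 controls, with a log2 fold change of 0.46 (SE 0.141, adjusted p = 0.137 in limma). The authors' deposited table gave a fold of 1.38 with an FDR of 0.0173 for the same gene. Cenpj mutant lungs 1 to 4, with 2285, 2247, 2092 and 2304, were likewise above all controls (0.33, adjusted p = 0.371).

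Dync2h1, the dynein-2 heavy chain, held 4437, 4861, 6310 and 4705 normalized counts in Ift88 mutant intestines 1 to 4 and 5725, 6890, 7402 and 7850 in Cenpj mutant intestines 1 to 4. The groups overlapped through Ift88 mutant 3 and Cenpj mutant 1. The log2 fold change of Cenpj against Ift88 mutants was 0.46 (SE 0.126, adjusted p = 0.0617 by limma). Kif3b, a motor subunit of kinesin-2 and the member with the smallest spread between replicates (pooled SD 0.0908 log2 units), held 3472, 3514, 3732 and 3795 in Ift88 mutant intestines 1 to 4, below the 4 controls at 4067, 4179, 4902 and 4276. It differed by -0.26 in log2 (SE 0.1, adjusted p = 0.241). In the authors' deposited table Kif3b had a fold of 0.833 (FDR 0.0172).

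The largest difference in the BBSome was in Bbs9, a structural subunit. Control lungs 1 to 4 held 1708, 1318, 1107 and 1442 normalized counts, and Cenpj mutant lungs 1 to 4 held 1907, 2028, 1871 and 2038. All 4 mutants were above all 4 controls, with a log2 fold change of 0.51 (SE 0.14, adjusted p = 0.114 in limma). DESeq2 gave an adjusted p of 0.0184, and the authors' deposited table a fold of 1.41 with an FDR of 0.00381. In Ift88 mutant intestine Bbs9 was also above all controls (0.30, adjusted p = 0.335), and the effect of Cenpj on it differed between the organs by 0.39 (SE 0.182, adjusted p = 0.932).

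The rest of the BBS group and the ARL GTPases held no called gene. Bbs5 had the widest spread of all members, a pooled SD of 0.33 log2 units, and the lowest mean, 730.7 normalized counts. Bbs4 differed by 0.41 in Ift88 mutant intestine (adjusted p = 0.304). Arl13b, a GTPase of the ciliary membrane that hedgehog signalling needs, differed by -0.03 and -0.04 in Cenpj and Ift88 mutant lung and by 0.06 and 0.01 in the same mutants of the intestine.

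In the transition zone, the Cenpj mutant lungs were low in Tctn1, a tectonic protein needed for ciliary gating. Tctn1 (ENSMUSG00000038593, chromosome 5, 122237848 to 122264460 on the - strand) held 1550, 1660, 1360 and 1743 normalized counts in Cenpj mutant lungs 1 to 4 and 2384, 2466, 2055 and 2528 in Ift88 mutant lungs 1 to 4. The control lungs held 2592, 2268, 2194 and 2166. All 4 Cenpj mutants were below all 8 other lungs.

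Tctn1 was the single member called between the mutants in lung, at a log2 fold change of -0.58 (SE 0.127, adjusted p = 0.0225 in limma). Over all genes 1.8% were called there, 0.679% higher and 1.12% lower. Against control the value was -0.55 (SE 0.127, adjusted p = 0.0612), and the authors' deposited table gave a fold of 0.685 with an FDR of 0.00965. In a fit of the 24 libraries with a term for library kind, the difference between the mutants was -0.34 (adjusted p = 0.743). That term is set only by lung control 3 and intestine control 2 against the other controls, so the fit cannot separate kind from genotype. Ribosomal-rich lung control 3, at 2194, lay within the range of the other 3 controls. The call between the mutants was lost without Ift88 mutant 1, 2 or 4 (adjusted p = 0.0798, 0.0876 and 0.0801) or without Cenpj mutant 3 (adjusted p = 0.0685).

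In intestine the groups for Tctn1 overlapped. Controls 1 to 4 held 2123, 1666, 2403 and 2084 normalized counts and Cenpj mutants 1 to 4 held 1815, 1848, 1839 and 2690. Cenpj mutant 4 was the highest of the 8, and the log2 fold change was -0.02 (SE 0.161, adjusted p = 1). The difference between the organs in the Cenpj effect was -0.53 (SE 0.202) and did not pass (adjusted p = 0.932). Exons of Tctn1 overlap those of Hvcn1, a proton channel gene on the opposite strand, over 1574 bases or 19% of their length, and the strand setting of the counting is not given in the sources used here. Hvcn1 itself differed by 0.26 in Cenpj mutant lung (adjusted p = 0.704), and its part in the Tctn1 counts was not tested.

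Mks1, a transition zone protein of the B9 domain family, was also low in Cenpj mutant lungs, with 1682, 1374, 1363 and 1796 normalized counts in libraries 1 to 4. Ift88 mutant lungs 1 to 4 held 2604, 2179, 2250 and 2346, all higher, and control lungs 1 to 4 held 2027, 2428, 1491 and 2419. Lung control 3, the ribosomal-rich control, overlapped the Cenpj mutants. The log2 difference was -0.60 between the mutants (SE 0.158, adjusted p = 0.0588 in limma) and -0.41 against control (adjusted p = 0.296).

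Nphp4, a nephrocystin of the transition zone, held 828, 942, 1047 and 1028 normalized counts in Cenpj mutant lungs 1 to 4 and 1300, 1413, 1264 and 1192 in Ift88 mutant lungs 1 to 4. The mutant groups did not overlap, and the log2 difference was -0.43 (adjusted p = 0.281 in limma). Control lungs 1 to 4 held 993, 984, 1620 and 1085. Controls 1 and 2 lay inside the range of the Cenpj mutants. Controls 1, 2 and 4 lay below all Ift88 mutants, and control 3 lay above them. B9d1, another B9 protein, was above all controls in Ift88 mutant lung at 0.44 (adjusted p = 0.118), as was the tectonic gene Tctn2 at 0.32 (adjusted p = 0.245). In lung 5 of 51 members did not overlap between the mutants (9.8%), where 7.64% of all genes did not. In intestine 6 of 51 did not (11.8%), with 10.3% of all genes.

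**Figure D4:**
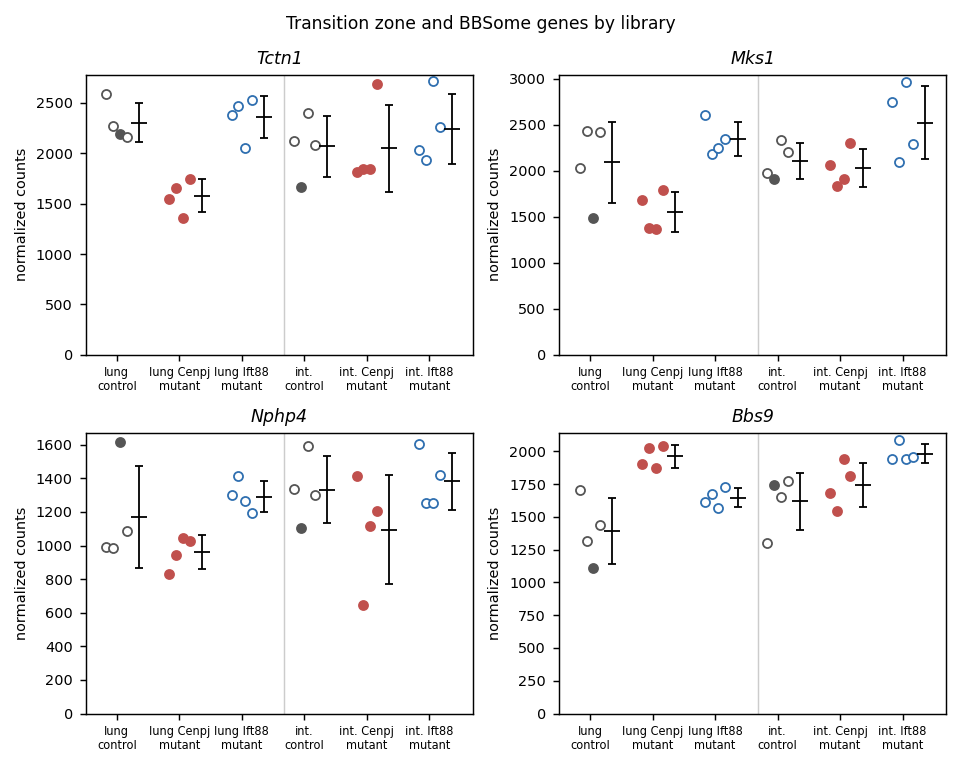
Normalized counts (vertical axis, from 0) of Tctn1, Mks1, Nphp4 and Bbs9 in each of the 4 libraries of the 6 groups, with group mean and SD beside the points; filled points are ribosomal-rich libraries. Tctn1 is lowest in the 4 Cenpj mutant lungs (1360 to 1743), below the 8 other lungs (2055 to 2592).

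Among the membrane and signalling genes, Gpr161 had the lowest log2 fold change in Ift88 mutant lung. Gpr161 (ENSMUSG00000040836, chromosome 1, 165295789 to 165326745 on the + strand) encodes a ciliary receptor that restrains hedgehog signalling. In control lungs 1 to 4 it stood at 7664, 6472, 6702 and 5823 normalized counts, and Ift88 mutant lungs 1 to 4 held 4664, 3916, 4498 and 5851. Mutant 4 overlapped the lowest control, and the other 3 were below all controls. The log2 fold change of Gpr161 was -0.50 (SE 0.125, adjusted p = 0.0577 in limma), which did not pass the test. Of the 8 fits that left out 1 library, 2 called it, without Ift88 mutant 4 (-0.61, adjusted p = 0.0246) and without control 4 (-0.56, adjusted p = 0.0214). The other 6 did not, with adjusted p up to 0.214 and -0.42 without Ift88 mutant 2. Of 12 other alternatives 2 called it, DESeq2 (adjusted p = 0.0102) and the replicate block (adjusted p = 0.0435), and the highest adjusted p was 0.285, with Y-linked reads as a term.

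The authors' deposited table gave Gpr161 in Ift88 mutant lung a fold of 0.71 with an FDR of 0.00859. The submitters also used DESeq2 on these libraries, so their value and the DESeq2 call above are not separate evidence. Nor does the replicate block add any, since the labels state no pairing. Deviations of same-numbered libraries of these groups correlated at 0.0824, 0.14, 0.0205 and -0.151. In intestine Gpr161 differed by -0.32 in log2 (SE 0.122, adjusted p = 0.242), and the difference between the organs was -0.18 (SE 0.178, adjusted p = 0.877). Cenpj mutants differed from control by -0.15 in lung and -0.0046 in intestine. Tulp3, which brings Gpr161 into cilia, differed by 0.01 in Ift88 mutant lung and by -0.13 in Ift88 mutant intestine, and Inpp5e, the ciliary lipid phosphatase, by 0.07 and 0.10.

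Marker sums of other cell types differed between the same groups of libraries. The 5 smooth muscle markers summed to 44860 to 72600 normalized counts in Ift88 mutant lungs and to 9401 to 29040 in control lungs, and to 87420 to 169300 and 6134 to 76860 in the same groups of the intestine. The 8 erythroid markers summed to 221700 to 358800 in Ift88 mutant lungs and to 472700 to 1503000 in control lungs, and to 153200 to 218600 and 196000 to 590900 in the intestine. In Cenpj mutant lungs the sums were 18930 to 42450 for smooth muscle and 511800 to 1673000 for erythroid cells. The intestinal erythroid sums of the 2 groups overlapped, and the other ranges of Ift88 mutants and controls did not. In Ift88 mutants against control, limma called 1 of the 5 smooth muscle markers in lung and 2 of 5 in intestine, all higher. It called 5 of the 8 erythroid markers in lung and 3 of 8 in intestine, all lower. Of all genes 1.07% were called in lung and 0.719% in intestine. Other lists held 1 called marker each: lung epithelium, mesenchyme, lung mesenchyme, endothelium, macrophages and heart muscle in lung. In intestine these were epithelium, lung epithelium, mesenchyme, intestinal mesenchyme, enteric neural crest and neurons, and mesothelium. No smooth muscle or erythroid marker averaged 0 in any group. Acta2 was the largest part of the smooth muscle sums, with means of 93280 in Ift88 mutant and 17360 in control intestines. Acta2, Myh11 and Cnn1 averaged higher in Ift88 mutants than in controls in both organs. Des was lower in Ift88 mutant intestine (3465 against 4952) and higher in lung (6248 against 4449). Tagln moved little, from 90.2 to 98.4 in lung and from 84.7 to 105.5 in intestine. The part of these cells in the values of the cilium genes was not tested.

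The targets of hedgehog signalling gave a readout of the pathway. Neither Gli1, Ptch1 nor Hhip was called in Ift88 mutant lung or intestine in limma, and none of these had an unadjusted p under 0.05 there. Gli1, the transcription factor gene induced by the pathway, differed by 0.09 (adjusted p = 0.841) and 0.19 (adjusted p = 0.67), and the receptor gene Ptch1 by -0.11 (adjusted p = 0.798) and -0.07 (adjusted p = 0.913). Hhip, the gene of a ligand-binding inhibitor, differed by -0.23 (adjusted p = 0.473) and -0.0082 (adjusted p = 1). In Cenpj mutant lung Gli1 fell by 0.65 (adjusted p = 0.0449) and Hhip by 0.76 (adjusted p = 0.00682), and Ptch1 differed by -0.60 (adjusted p = 0.0762). Between the mutants in lung, Gli1 (-0.73, adjusted p = 0.00897) and Hhip (-0.52, adjusted p = 0.0334) were lower in the Cenpj mutants. Comparisons of the mutants carry the library kind named above. So, in large part, do those of Cenpj mutants with control, since lung control 3 was the only ribosomal-rich control lung.

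A further 55 genes of the cilium and its base, outside the 51, were read in the same fits. None was called in limma in Cenpj mutant lung, Cenpj mutant intestine or Ift88 mutant intestine. In Ift88 mutant lung 1 was called, Pde6d, a carrier of lipid-modified ciliary proteins, which rose by 0.49 (SE 0.11, adjusted p = 0.0347), where 1.07% of all genes were called. Between the mutants in lung 3 were lower in the Cenpj mutants, where 1.8% of all genes were called, and 3.72% of those within the range of levels of the 51. These were Fuz, a planar polarity effector needed to build cilia (-0.81, adjusted p = 0.00887), the ciliary kinase gene Nek8 (-0.55, adjusted p = 0.0422) and the polycystin gene Pkd1 (-0.50, adjusted p = 0.0302). In intestine Fuz (-0.82, adjusted p = 0.0273) and the polycystin gene Pkd2 (-0.48, adjusted p = 0.0444) were lower in that comparison, against shares of 2.19% and 4.25%. The median log2 difference of the 55 genes lay between -0.06 and 0.07 in the 6 comparisons within an organ.

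Of the transcription factors of ciliogenesis, Rfx1, a factor of the family that binds the X-box, was called between the mutants in both organs, at -0.53 (adjusted p = 0.0102 in limma) in lung and -0.53 (adjusted p = 0.0316) in intestine. None was called against control, of 12 tested in lung and 11 in intestine. Rfx3, the RFX factor best known for cilium genes, differed from control by -0.62 in Cenpj mutant lung (adjusted p = 0.0832), -0.47 in Ift88 mutant lung (adjusted p = 0.174), -0.16 in Cenpj mutant intestine (adjusted p = 0.906) and -0.48 in Ift88 mutant intestine (adjusted p = 0.114). Foxj1, the master factor of motile cilia, averaged 94.4 to 371 normalized counts across the groups. The 18 genes of multiciliated cells summed to 3831 to 6033 normalized counts in any library, and none of the 16 tested was called against control.

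The largest difference of any member lay between the organs. In controls 4 of 51 members were called, all lower in lung, beside 5.33% of all genes called, 2.6% higher and 2.73% lower. Within the members' range of mean normalized counts the share called was 10.2%. The members' 4 of 51 did not exceed that share. The 4 were B9d2, Dync2li1, Tmem67 and Ahi1. The organs differ in their cells: markers of lung mesenchyme summed to 95230 to 152200 normalized counts in lungs and 19170 to 28400 in intestines, and those of intestinal mesenchyme to 199.5 to 1234 and 34150 to 53080. Their part in the organ differences was not tested.

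B9d2 (ENSMUSG00000063439, chromosome 7, 25680780 to 25686558 on the + strand), a B9 protein of the transition zone, had the largest difference. B9d2 stood at 1087, 1223, 1197 and 966 normalized counts in control lungs 1 to 4, and control intestines 1 to 4 held 1476, 2690, 1863 and 2112. All 4 lungs were below all 4 intestines, and the log2 fold change of lung against intestine was -0.84 (SE 0.16, adjusted p = 0.000914 in limma). The call held without any single library (adjusted p = 0.000162 to 0.00636) and without both ribosomal-rich controls (-0.73, adjusted p = 0.0088).

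In the mutants the organ difference of B9d2 was smaller and was not called. It was -0.30 in Cenpj mutants (adjusted p = 0.358) and -0.42 in Ift88 mutants (adjusted p = 0.118). The change of the organ difference itself, which equals the difference of the mutant effects, was 0.54 for Cenpj (95% interval 0.07 to 1.00, adjusted p = 0.932) and 0.42 for Ift88 (adjusted p = 0.727). Across genotypes, the 12 lungs held 966 to 1529 normalized counts with a median of 1262, and the 12 intestines held 1318 to 2690 with a median of 1832.

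Ahi1 (ENSMUSG00000019986, chromosome 10, 20952547 to 21080429 on the + strand), which encodes jouberin, was called in all 3 genotypes. The groups compared share no library, but the 3 tests share 1 estimate of the spread from all 24 libraries. Control lungs 1 to 4 held 2745, 2698, 2817 and 1608 normalized counts and control intestines 1 to 4 held 3581, 3868, 3475 and 3087. Ahi1 differed by -0.54 in log2 (SE 0.153, adjusted p = 0.0337 by limma), and without lung control 4 it was -0.34 (adjusted p = 0.194). The control groups did not overlap. The call was also lost with only the 8 control libraries in the fit (adjusted p = 0.14) and without both ribosomal-rich controls (-0.56, adjusted p = 0.0637).

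In Cenpj mutants Ahi1 stood at 1866, 2725, 2285 and 2730 in lungs 1 to 4 and at 3532, 3408, 3191 and 3569 in intestines 1 to 4, a log2 fold change of -0.53 (adjusted p = 0.0324 in limma). In Ift88 mutants the lungs held 2457, 1851, 1754 and 2145 and the intestines 2920, 2907, 2572 and 2952, a log2 fold change of -0.48 (adjusted p = 0.0495). In each genotype all 4 lungs were below all 4 intestines, and all 12 lungs were below the median of the 12 intestines, 3300. Leaving out 1 library ended the call in 5 of 8 cases in Cenpj mutants (highest adjusted p = 0.152), in 7 of 8 in Ift88 mutants (0.168) and in 4 of 8 in controls (0.194).

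Dync2li1 was the motor gene among the 4. The control lungs given above lay below the control intestines, which held 2728, 2958, 2160 and 2756 normalized counts. Its log2 fold change of -0.56 (SE 0.133, adjusted p = 0.00763) by limma was called whichever library was left out. Without both ribosomal-rich controls it was -0.43 (adjusted p = 0.109), and with only the 8 control libraries in the fit the adjusted p was 0.0544. The difference was -0.18 in Cenpj mutants (adjusted p = 0.555) and -0.34 in Ift88 mutants (adjusted p = 0.128).

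Tmem67, the transition zone receptor meckelin, held 1539, 1296, 892 and 1305 normalized counts in control lungs 1 to 4 and 1845, 1846, 1749 and 1926 in control intestines 1 to 4. All lungs were lower, and the log2 difference was -0.58 (SE 0.163, adjusted p = 0.0329 by limma). It depended on lung control 3, without which it was -0.42 (adjusted p = 0.164), and without both ribosomal-rich controls it was -0.42 (adjusted p = 0.219). Leaving out any of 7 of the 8 control libraries ended the call, with the exception of lung control 1, and so did edgeR (adjusted p = 0.0611) and a fit of the 8 control libraries alone (adjusted p = 0.107). Exons of Tmem67 overlap those of Rbm12b2 on the opposite strand over 3.7% of their length, and Rbm12b2 differed by 0.02 (adjusted p = 1).

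**Figure D5:**
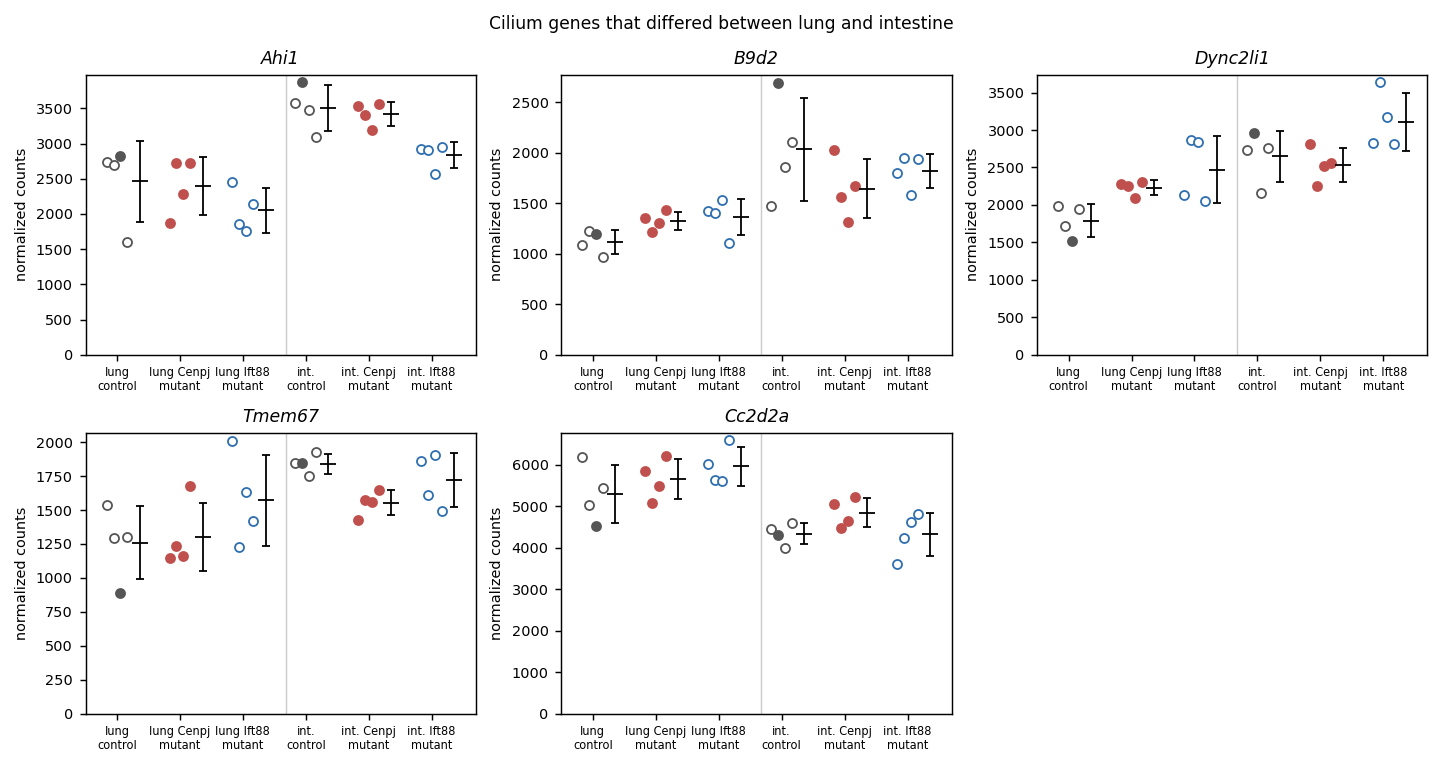
Normalized counts (vertical axis, from 0) of Ahi1, B9d2, Dync2li1, Tmem67 and Cc2d2a in each of the 4 libraries of the 6 groups, with group mean and SD beside the points; filled points are ribosomal-rich libraries. All lung controls lie below all intestine controls for Ahi1, B9d2, Dync2li1 and Tmem67, and all Ift88 mutant lungs lie above all Ift88 mutant intestines for Cc2d2a.

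In controls 6 of 51 members (11.8%) did not overlap between the organs, all of them lower in lung, where 7.18% of all genes did not overlap in either direction. Beside the 4 called genes these were Ift122, a subunit of complex A (-0.30, adjusted p = 0.0798 in limma), and Tctn2 (-0.33, adjusted p = 0.0857). With the replicate number as a block Ift122 was called too. Tctn2 held 1949, 1902, 1888 and 2062 normalized counts in control lungs 1 to 4 and 2425, 2681, 2422 and 2274 in control intestines 1 to 4.

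In Cenpj mutants Ahi1 was the single called member, lower in lung, beside 6.51% of all genes called, 2.53% higher and 3.98% lower. The next members were Tctn2 at -0.35 (adjusted p = 0.051) and Ift20 at 0.44 (adjusted p = 0.0546), the latter higher in lung. In Ift88 mutants 2 members were called, beside 8.47% of all genes, with 3.1% called higher and 5.37% lower. Ahi1 was the lower one. At an unadjusted p under 0.05 the members numbered 10 in controls (19.6%, with 14.6% of all genes), 8 in Cenpj mutants (15.7%, with 17.4%) and 9 in Ift88 mutants (17.6%, with 18.3%). Members that did not overlap between the organs numbered 6 in Cenpj mutants (11.8%, with 10.8% of all genes) and 9 in Ift88 mutants (17.6%, with 14.1%).

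The gene higher in lung was Cc2d2a (ENSMUSG00000039765, chromosome 5, 43662346 to 43740972 on the + strand), a coiled-coil protein of the transition zone. Ift88 mutant lungs 1 to 4 held 6015, 5625, 5608 and 6606 normalized counts, and Ift88 mutant intestines 1 to 4 held 3616, 4234, 4619 and 4806. All lungs were higher, with a log2 fold change of 0.47 (SE 0.107, adjusted p = 0.00347 in limma). The call held in all 20 alternatives, with adjusted p between 0.000338 and 0.026. Cc2d2a was higher in lung by 0.28 in controls (adjusted p = 0.159) and by 0.22 in Cenpj mutants (adjusted p = 0.277), so its direction was the same in the 3 genotypes.

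Over all 51 genes the organ difference kept its sign in the 3 genotypes for 24 members, of which 15 were lower and 9 higher in lung. That is 47.1%, beside 53.9% of genes in the same range of levels. The differences of the mutant effects between organs gave 0 called members in limma for both genes, with 3 at an unadjusted p under 0.05 for Cenpj (Tctn1, B9d2 and Bbs9) and 0 for Ift88, where 4.76% and 7.27% of all genes passed. Over all genes 0% and 0.0125% were called (0.00312% higher and 0.00935% lower for Ift88), and edgeR and DESeq2 called 0 members.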

How the data were processed

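Whole lung and small intestine at E11.5 were profiled by RNA-seq after Trizol and column extraction, per the labels' protocols. Per the submitters' processing notes, STAR 2.5.2b, DESeq2 1.16.1 and the build GRCm38 (mm10) were used; the sources used here do not name the counting tool, the annotation or the strand used. The authors deposited 1 table of 55536 genes with normalized counts for 24 libraries, a signal equal to read counts divided by 1 size factor per library, as the values show. The authors also deposited a fold ratio, a p-value and an FDR for each of 9 comparisons; these are quoted only as theirs.

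Genes with a mean of 1 or more were tested on log2(normalized count + 1) with limma 3.58.1 in R 4.3.3 (trended prior, group means, Benjamini-Hochberg over all genes, threshold 0.05). Comparisons within an organ used its 12 libraries, and comparisons between organs used all 24. Since the values were normalized, the count tests were alternatives: whole reads were recovered by dividing by each library's step (median share whole 100%, lowest 94.95%, tolerance 0.051), and edgeR 4.0.16 and DESeq2 1.42.0 were run on them. Other alternatives were pseudocounts of 0.5 and 8, other filters on low values, TMM scaling, only the groups compared, a replicate block, library kind, Y-linked reads, leaving out each library, and leaving out both ribosomal-rich controls, the last chosen after seeing the data.

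Same-numbered libraries deviated together, with all 4 correlations above 0.1 (0.101 to 0.244), only between control lung and control intestine; the labels do not state a pairing. Every member past the threshold, Ift88 and the extremes of each role could be named, and beside the members Cenpj and called genes of the other cilium, transcription factor and hedgehog lists, with Gli1, Ptch1, Hhip, Foxj1 and Rfx3. Other genes and members were named after their values were seen. Some results are not reported here. The members and lists were chosen with earlier results of these data known.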

Additional observations from a re-analysis of the deposited data

Results flagged for a closer look

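Within groups of 4, a library was marked where its gap to the nearest other library, divided by the range of the group, exceeded Dixon's 95% critical value. This was so for 21 of 306 gene and group pairs, or 6.86 per 100, where chance gives about 1 in 20. All values are normalized counts.

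Among subunits of intraflagellar transport, Ift57 stood at 1788.5 in intestine control 2 against 1222.2 to 1305.1 in the others, and Ift74 at 6166.9 in lung Ift88 mutant 3 against 4979.2 to 5087.4. Traf3ip1 stood at 2964.3 in intestine Cenpj mutant 4 against 2782.6 to 2807.5. Ift140 stood at 8689.6 in lung control 1 against 5995.9 to 6349.3.

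In the BBS and ARL genes, Bbs4 stood at 1505.9 in lung Cenpj mutant 2 against 1226.6 to 1261.2, and Bbs5 at 679.9 in lung Cenpj mutant 4 against 763.4 to 777.1. In intestine Ift88 mutant 1, Bbs7 was low at 1427.5 against 1909.4 to 1974.7 and Bbs10 was high at 1191.2 against 834.5 to 893.6. Bbs9 stood at 2088.5 in intestine Ift88 mutant 2 against 1943.9 to 1957.3. In lung Ift88 mutant 3, Bbs12 was high at 1586.4 against 1166.3 to 1193 and Arl13b was low at 2326.5 against 2536.1 to 2566.1. Arl6 stood at 1199.7 in intestine Cenpj mutant 1 against 1616.8 to 1649.4.

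In the transition zone, Ahi1 was low at 1608.3 in lung control 4 against 2698.4 to 2816.7, the library without which its organ difference in controls lost its call. It was also low at 2572.3 in intestine Ift88 mutant 3 against 2906.7 to 2952.2. Tctn1 stood at 2690.3 in intestine Cenpj mutant 4 against 1814.7 to 1848.1, and Tmem67 at 1674.6 in lung Cenpj mutant 4 against 1149.3 to 1234.2. Nphp4 stood at 1619.6 in lung control 3 against 984.1 to 1085.3. Tctn2 was low at 2245.7 in intestine Ift88 mutant 1 against 2681.7 to 2749.6. In intestine control 2, Tctn3 stood at 1118.8 against 1367.7 to 1417.8 and Rpgrip1l at 2346.2 against 2497.2 to 2515. Cep290 was high at 3390.5 in intestine Ift88 mutant 3 against 2238.3 to 2422.9.

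The marked values fell in 12 libraries, of which 3 held 3 each: intestine Ift88 mutant 1, intestine control 2 and lung Ift88 mutant 3.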

How the results depend on the processing

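No called gene changed direction under an alternative, but medians of the 51 members near 0 changed sign. Within intestine the median of Cenpj mutant against control, 0.000598 on the log2 scale, was -0.00607 with library kind as a term and -0.0325 without Cenpj mutant 4. Over all alternatives the median ranged from -0.0235 to 0.0303 between the mutants in lung and from -0.0595 to 0.00977 in intestine. Between organs it ranged from -0.0446 to 0.0141 in Cenpj mutants and from -0.0146 to 0.0268 in Ift88 mutants. With library kind, 32 of 51 members kept their sign between the mutants in lung and 34 of 51 in Cenpj mutant intestine against control. The number of members called in the organ comparison of Cenpj mutants, 1 in limma, was 3 with DESeq2, with a filter of 10 or more in at least 4 libraries and without both ribosomal-rich controls. It was 2 with a pseudocount of 8, with any value above 0 and with only the groups compared, and 0 with Y-linked reads as a term. For Ift88 mutants, 2 became 4 with DESeq2 and 1 with edgeR, a pseudocount of 0.5, any value above 0 and TMM scaling. For controls, 4 became 1 with only the groups compared and without both ribosomal-rich controls. Between the mutants in intestine, 1 became 3 with DESeq2, 2 with only the groups compared, the replicate block, Y-linked reads and without both controls, and 0 with edgeR, any value above 0 and library kind. In lung, 1 became 3 with DESeq2 and the replicate block, 2 with only the groups compared and without both controls, and 0 with library kind. Against control, 0 became 3 with DESeq2 in either mutant lung and 1 in Ift88 mutant intestine, and the replicate block gave 1 in Ift88 mutant lung. The replicate block gave no other count more than 1.5 times away. The cause of these shifts was not tested.

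Leaving out 1 library gave 2 to 4 members in control organs, 0 to 2 in Cenpj mutant organs, 1 to 2 in Ift88 mutant organs, 0 to 1 between the mutants in intestine and 0 to 2 in lung. It gave 0 to 1 against control in either mutant lung and 0 in intestine and for both differences between organs. Over all genes, calls ranged under the other alternatives from 7 to 754 in Cenpj mutant lung (161 in limma), 18 to 972 in Ift88 mutant lung (335), 0 to 85 in Cenpj mutant intestine (0) and 69 to 1015 in Ift88 mutant intestine (227). Between the mutants they ranged from 36 to 1105 in lung (563) and 22 to 1855 in intestine (692), and for the differences between organs from 0 to 44 for Cenpj (0) and 0 to 194 for Ift88 (4). For lung against intestine they ranged from 1169 to 2095 in controls (1711), 1822 to 2561 in Cenpj mutants (2089) and 2366 to 3427 in Ift88 mutants (2718). Leaving out 1 library gave 36 to 407 in Cenpj mutant lung, 52 to 995 in Ift88 mutant lung, 0 to 37 in Cenpj mutant intestine and 25 to 1027 in Ift88 mutant intestine. It gave 195 to 681 between the mutants in lung, 71 to 1004 in intestine, and 0 to 135 for the difference between organs for Ift88. With 4 libraries a group, the median standard error of a member was 0.127 log2 units within an organ, which limits smaller differences.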

Other observations

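Transcription factors of ciliogenesis differed between the organs of the Cenpj mutants. Of 12 tested, 5 were lower in lung and 0 higher, with Rfx3 at -0.85 (adjusted p = 0.000566 in limma), Rfx2 at -0.75 (adjusted p = 0.0161), Foxj1 at -1.66 (adjusted p = 0.0286), Myb at -1.44 (adjusted p = 0.000216) and Trp73 lower with all 4 lungs at 0. Over all genes 6.51% were called in that comparison, 2.53% higher and 3.98% lower. In Ift88 mutants 2 of the 12 were lower in lung, Rfx2 at -0.78 (adjusted p = 0.00929) and Myb at -1.04 (adjusted p = 0.00496). There 1 was higher, Mcidas, at group means of 38.9 normalized counts in lung and 2.33 in intestine (adjusted p = 0.00842), and 8.47% of all genes were called. The median log2 difference of the 12 was -0.37 in Ift88 mutants, -0.22 in Cenpj mutants and -0.10 in controls. In controls, where 5.33% of all genes were called, 1 of the 12 was, Myb at -0.99 (adjusted p = 0.0116), and Rfx3 differed by -0.38 (adjusted p = 0.216). The difference between the organs in the effect of Cenpj on Rfx3 was -0.47 (SE 0.222, adjusted p = 0.932).

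Of the 55 other cilium genes, 3 were called higher and 2 lower in lung than in intestine in Ift88 mutants, 1 was lower in Cenpj mutants and 1 was higher in controls. Of all genes, 8.47%, 6.51% and 5.33% were called in these comparisons, in the same order. Anks6, a partner of the ciliary kinase Nek8, was lower in lung in both mutants, at -0.59 in Cenpj mutants (adjusted p = 0.0255) and -0.78 in Ift88 mutants (adjusted p = 0.00189). In Ift88 mutants the kinesin gene Kif17 was higher in lung at 1.59 (adjusted p = 0.00888), as were Wdpcp at 0.81 (adjusted p = 0.00647) and Evc2, a hedgehog mediator at the ciliary base, at 0.35 (adjusted p = 0.0292). The other gene that was lower there was Mchr1, a ciliary receptor of a neuropeptide, at group means of 16.1 normalized counts in lung and 123 in intestine (adjusted p = 0.00876). In controls Ttc30b, a subunit gene of intraflagellar transport, was higher in lung at 0.93 (adjusted p = 0.00268).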
